A study of Mus musculus with 12 samples.

Results

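The genes described here control the passage of a cell through G1, the phase before DNA is copied. They are 3 D-type cyclins (Ccnd1, Ccnd2 and Ccnd3), 2 E-type cyclins (Ccne1 and Ccne2), the kinases Cdk4 and Cdk6, and the inhibitors Cdkn1a (p21), Cdkn1b (p27) and Cdkn2c (p18). All probe sets annotated to these 10 genes were taken, which gave 27 of the 45101 probe sets, and 10 of the 18193 genes named on the array. Of these 27, 26 passed the filter on dim signals and were tested. The other, 1419497_at of Cdkn1b, lay between 10.4 and 58.7 on the 12 arrays, below the median of all values on each.

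D-type cyclins are made in response to growth factors and cytokines, and they switch on CDK4 and CDK6. These kinases phosphorylate the retinoblastoma protein and so release E2F transcription factors, whose targets include the E-type cyclins and the enzymes of DNA replication. The inhibitor p18 binds CDK4 and CDK6, whereas p21 and p27 bind complexes of cyclins with CDKs, and p21 is a textbook target of p53. In blood cells, GM-CSF and related cytokines signal through the paired transcription factors STAT5A and STAT5B, and D-type cyclin genes are among the genes that STAT5 is known to regulate.

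The study measured messenger RNA in mouse cells, and its title places the work in granulocyte formation under GM-CSF. The 4 groups were treated and untreated cells of mice that lacked Stat5a and Stat5b in blood cells (knockout), and treated and untreated cells of control mice that carried both genes. Each group had 3 arrays, 1 on each of 3 array dates. The treatment field reads with or without "GMP". In the array titles of dates 1 and 3, GMP stands on treated and untreated arrays alike, with a separate + or - sign. In those titles GMP thus does not name something that only treated cells received. The labels do not otherwise name the agent, and they state no dose, duration, age or strain. How the genes were deleted in blood cells, by which Cre driver if any, is not given in the sources used here, nor is the number of mice behind a sample. The p-values therefore speak only of the spread among these samples, which may be partly technical. In such bulk samples, fewer cells of a type and less RNA per cell cannot be told apart.

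Promoter windows from RefSeq (GRCm38.p6, 250 bases before to 50 bases from the start site on) matched 7 of the 10 genes, with 10 windows. There was no window for Ccnd1, Ccnd2 and Ccne2, so no motif was searched in these genes. The windows of Cdkn1a and Cdk4 are shown because Cdkn1a rose with treatment and because Cdk4 was lower with treatment on every date and held the most negative treatment value in control cells. The Cdkn1a window is the upstream of its 2 windows, chr17:29090729-29091028, and the Cdk4 window is chr10:127063285-127063584. Both are on the plus strand. Capitals in the Cdkn1a window mark a match to the p53 consensus, and capitals in the Cdk4 window mark the E-box CACGTG.
Cdkn1a: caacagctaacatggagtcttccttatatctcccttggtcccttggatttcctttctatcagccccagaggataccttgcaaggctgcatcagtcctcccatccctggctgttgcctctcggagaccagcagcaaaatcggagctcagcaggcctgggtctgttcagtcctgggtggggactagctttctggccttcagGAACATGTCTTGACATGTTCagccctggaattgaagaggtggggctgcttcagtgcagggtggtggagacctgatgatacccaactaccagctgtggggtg
Cdk4: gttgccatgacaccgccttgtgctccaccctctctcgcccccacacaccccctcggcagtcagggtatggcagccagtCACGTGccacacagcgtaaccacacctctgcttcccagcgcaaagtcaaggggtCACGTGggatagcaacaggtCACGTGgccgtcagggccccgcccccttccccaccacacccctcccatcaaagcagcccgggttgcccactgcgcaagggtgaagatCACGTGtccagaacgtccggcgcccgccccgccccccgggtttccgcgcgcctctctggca
The p53 consensus was searched on both strands as 2 adjacent half-sites with at most 1 mismatch over 20 bases. It matched 1 of the 10 member windows and 0.0883% of 32851 windows of all genes. The match in Cdkn1a starts at position -51 from the start site of the upstream window. The other Cdkn1a window, which belongs to a start site further downstream, had no match. The E-box was found in 3 of the 10 windows, those of Cdk4, Cdk6 and Cdkn2c, against 7.15% of all windows. It reads the same on both strands. The 4 matches in the Cdk4 window start at positions -172, -118, -98 and -11 from the start site. Both motifs were chosen after the sequences were seen. The STAT motif TTCNNNGAA, which also reads the same on both strands, was in 0 of the 10 windows, against 8.3% of all windows. The E2F-like motifs TTTCGCGC, TTTCCCGC and TTTGGCGC, searched on both strands, were in 0 of the 10 windows, against 1.84% of all. With 10 windows, none of them from Ccnd1 or Ccnd2, the counts of 0 are not read as lower than the shares of all windows. These matches describe letters in a window and show no binding.

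Across the arrays, those of date 2 stood apart. The ratio of the 3' to the 5' probe set of Actb is used as a check of RNA and labelling, and the arrays of date 2 had ratios of 20.8 to 266, against 1.14 to 2.05 on dates 1 and 3. For member probe sets, values without date 2 are given below where leaving it out turned a sign or moved a printed value by over 1.5 times. On date 2 the title of the treated knockout array also has a number tag unlike that of its 3 companions, and the labels do not explain it. Stat5a had signals of 26.7 to 44.3 in treated and 33.0 to 101 in untreated knockout cells, against 375 to 872 in treated and 833 to 1147 in untreated control cells. Stat5b lay between 1.80 and 60.5 on the 6 knockout arrays and between 287 and 1531 on the 6 control arrays. Some granulocyte and progenitor genes were bright on every array (Mpo 15310 to 111800, Elane 6216 to 21550). Other genes of these types were much lower on some arrays, such as Kit (623 to 5457), Cd34 (491 to 8313), S100a9 (195 to 10670) and Mmp8 (138 to 526). Some genes of other types were near the background, with at most 7.25 for C1qa, 16.6 for Cd3d, 72.9 for Cd79a and 96.4 for Hba-a1. Others were not, among them the monocyte gene Csf1r (6440 to 40380), the B lineage gene Cd79b (174 to 873), the mast cell and basophil genes Cpa3 (513 to 3229), Mcpt8 (750 to 2162) and Ms4a2 (864 to 4276), and the megakaryocyte gene Pf4 (479 to 3900). The summed signal of the 5 T and NK markers was 1249 to 5643 in treated and 8049 to 9669 in untreated knockout cells, and 1586 to 4735 in treated and 7730 to 8677 in untreated control cells. Nkg7 made up most of that sum, 3 of the 5 genes never exceeded the median of all values, and none was at 0. The sum of the 3 B lineage markers was 303 to 631 in treated and 596 to 974 in untreated knockout cells, and 276 to 350 in treated and 462 to 698 in untreated control cells. Cd79b made up most of that sum, as Cd79a and Pax5 reached at most 72.9 and 96.3. The part of these shifts in the treatment results below was not tested.

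Treatment of knockout cells raised the p21 gene Cdkn1a, and no other member passed the test. Both Cdkn1a probe sets were called, which makes 2 of 26 probe sets upward and 0 downward (limma, Benjamini-Hochberg adjusted p under 0.05 over 21363 probe sets). Over all probe sets tested, 5.77% were called upward and 2.89% downward at this adjusted threshold. In control cells the same 2 probe sets were called upward and 0 of 26 downward, against 3.16% upward and 1.54% downward over all probe sets. At an unadjusted p under 0.05 there were 4 upward and 0 downward in knockout cells, and 6 upward and 2 downward in control cells. The share of all probe sets at that unadjusted threshold is not given here, so these counts are not set against a background. The median log2 difference of the 26 was 0.15 in knockout cells, where that of all probe sets was 0.01, and -0.19 in control cells, where that of all was -0.01. Counted from the estimate to its end, the 95% confidence intervals of all 21363 probe sets had a median reach of 0.684 before any adjustment. This holds for each treatment comparison, and the intervals of single members were narrower or wider. The adjusted test needs larger differences than that with 3 arrays a group.

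**Figure D1:**
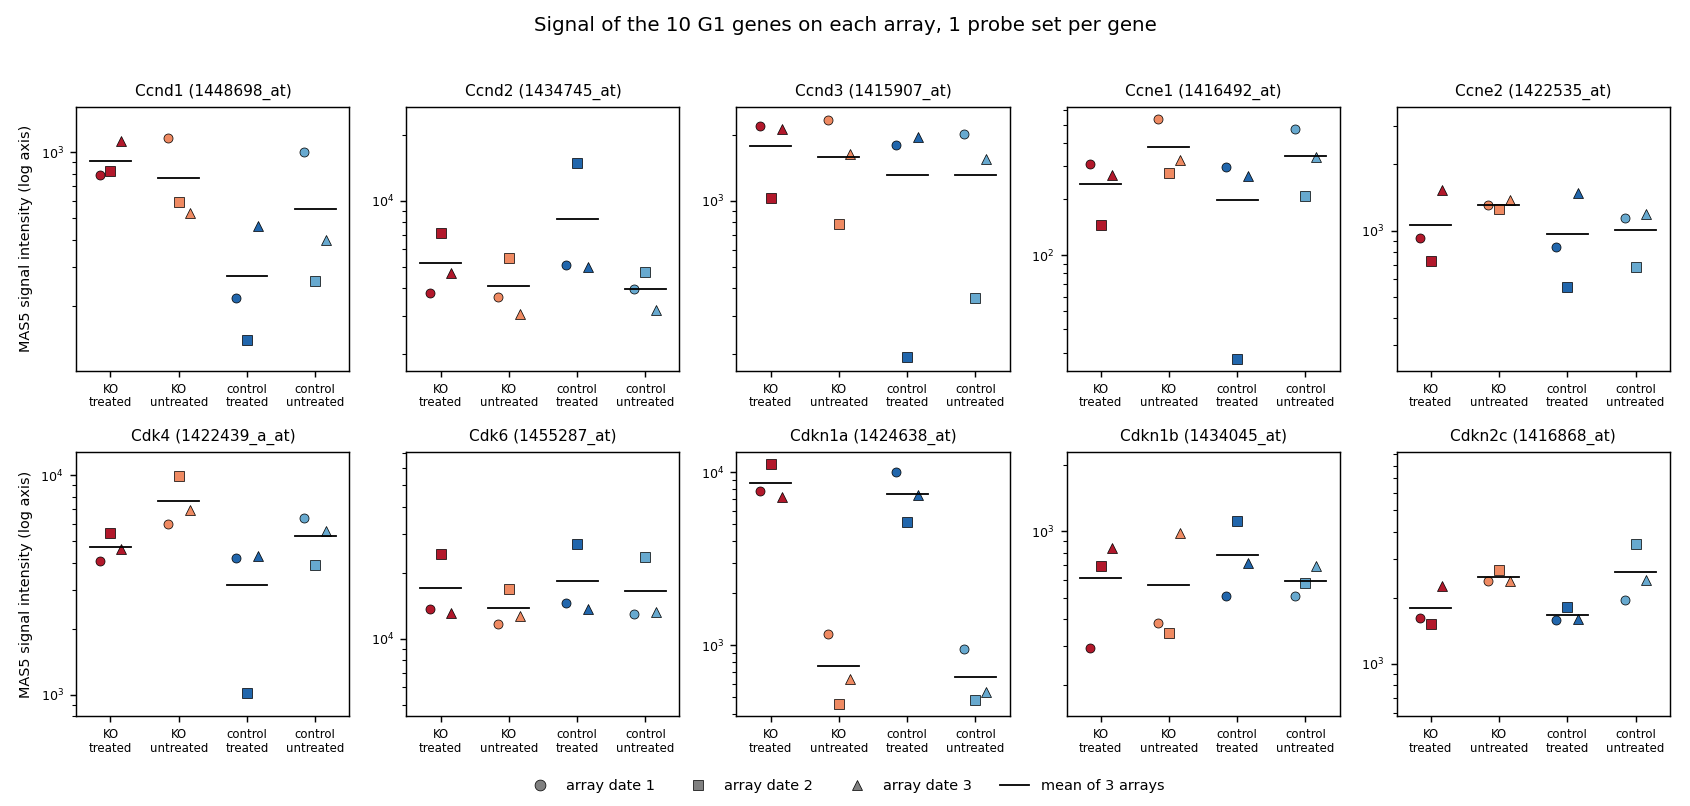
Signal of 1 probe set per member gene in the 4 groups, on a logarithmic axis, with 1 point per array and a bar at the mean of the 3 arrays. Cdkn1a sits between 5164 and 11157 on the 6 treated arrays and between 456 and 1167 on the 6 untreated arrays, and the other genes overlap more between the groups.

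The Cdkn1a probe set 1424638_at had signals of 7771, 11157 and 7158 on dates 1, 2 and 3 in treated knockout cells, against 1167, 456 and 643 in untreated knockout cells. In control cells it had 10009, 5164 and 7417 with treatment, against 948, 481 and 537 without. Every treated array was thus above every untreated array in both genotypes. The log2 rise was 3.58 ± 0.33 in knockout cells (SE, n = 3 arrays a group, limma adjusted p = 5.28e-04) and 3.51 ± 0.33 in control cells (adjusted p = 5.12e-04). These are rises of 11.97-fold and 11.39-fold, taken on the intensity plus 13. The rises in knockout and control cells differed by 0.07 ± 0.46 on the log2 scale, with a 95% confidence interval of -0.96 to 1.10 and an adjusted p of 1 in limma. Without date 2 that difference was -0.48 ± 0.35, and the rise was 3.09 ± 0.25 in knockout cells and 3.57 ± 0.25 in control cells.

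The other Cdkn1a probe set, 1421679_a_at, varied more between arrays of a group. It had 725, 1509 and 4600 in treated knockout cells on dates 1 to 3, against 236, 171 and 219 in untreated ones, and 2116, 339 and 4073 in treated control cells, against 247, 94.1 and 220 in untreated ones. Here too the treated and untreated arrays did not overlap in either genotype, but the treated arrays spread widely, with the lowest on date 1 in knockout cells and on date 2 in control cells. The log2 rise was 2.97 ± 0.65 in knockout cells (limma adjusted p = 0.0221) and 2.96 ± 0.65 in control cells (limma adjusted p = 0.0317). Without date as a block the adjusted p of this Cdkn1a probe set was 0.118 and 0.178. Its call in knockout cells was also lost, with adjusted p from 0.0613 to 0.107, when treated knockout replicate 2 or 3 or untreated knockout replicate 1 or 3 was left out. Its call in control cells was lost, with adjusted p from 0.0537 to 0.142, without untreated knockout replicate 1, without treated control replicate 1 or 3, or without any 1 of the untreated control replicates. The probe set 1424638_at kept its call under every alternative run.

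Between the genotypes, the Cdkn1a signals overlapped. In treated cells the probe set 1424638_at averaged 8696 ± 2154 in knockout and 7530 ± 2424 in control cells (SD, n = 3 arrays each). In untreated cells it averaged 756 ± 369 in knockout and 655 ± 255 in control cells. The log2 difference between knockout and control was 0.23 with and 0.16 without treatment. Without date 2 these values were -0.21 and 0.28, so the sign in treated cells turned.

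The 2 genes whose pattern over the 12 arrays was most like that of Cdkn1a, by Pearson correlation of log2 signal after removing each date's mean, were Ahnak (r = 0.995) and Cpeb4 (r = 0.99). The arrays share their groups, so the treatment difference enters these correlations. Ahnak, which encodes a large scaffold protein, rose by 4.20 ± 0.35 in treated knockout cells and by 3.65 ± 0.35 in treated control cells (limma adjusted p = 3.55e-04 and 5.70e-04). Cpeb4, which encodes an RNA-binding regulator of translation, rose by 2.59 ± 0.30 in knockout and 2.08 ± 0.30 in control cells (limma adjusted p = 0.00132 and 0.00556).

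**Figure D2:**
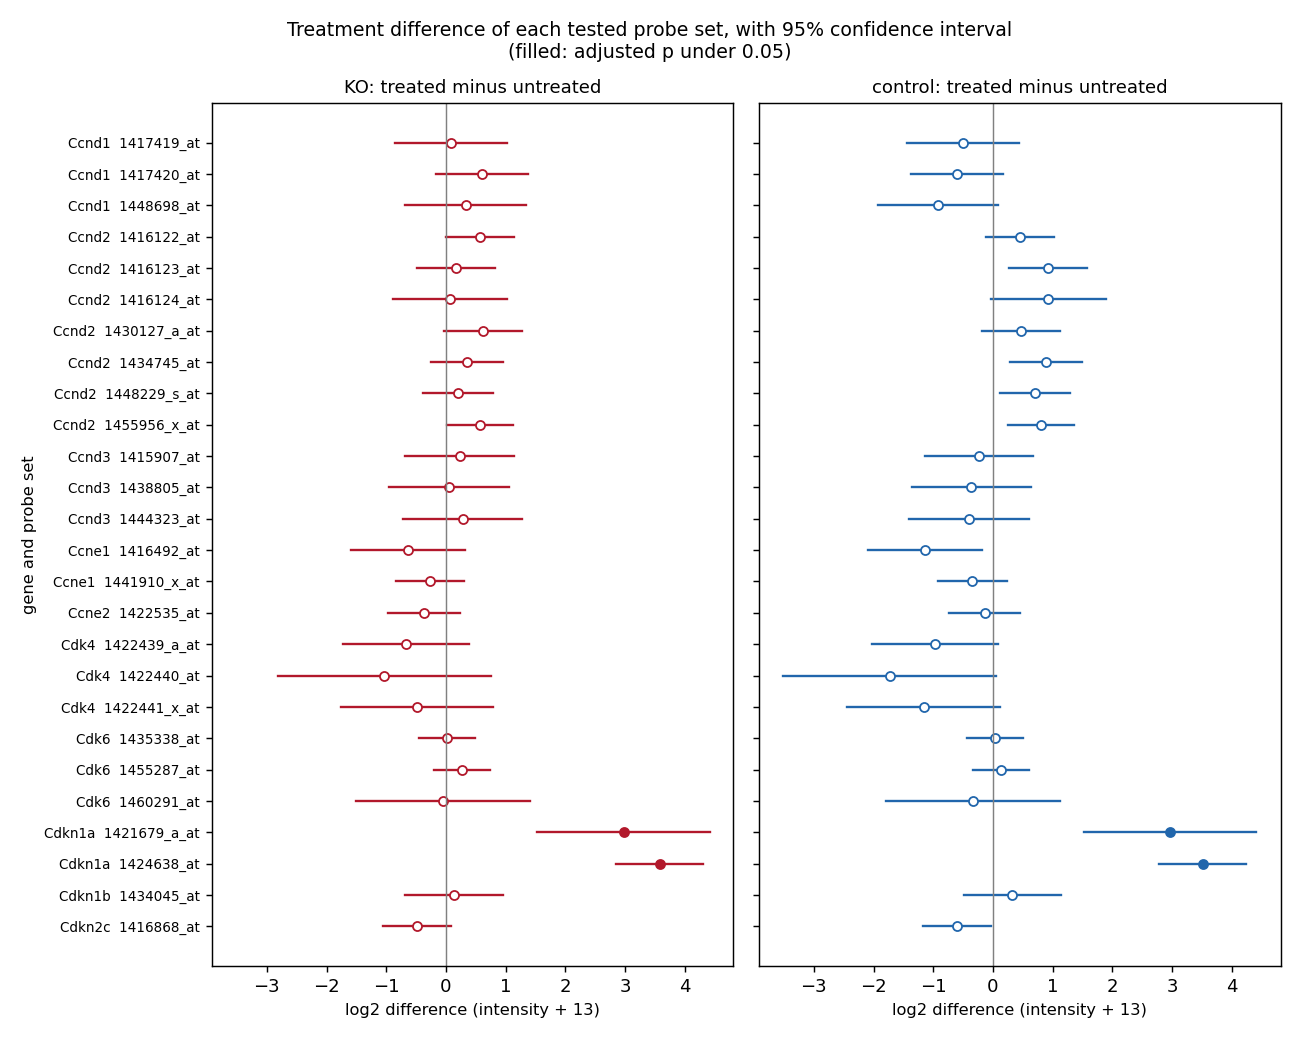
Log2 difference between treated and untreated cells for the 26 tested probe sets, in knockout and control cells, with 95% confidence intervals from limma. The 2 Cdkn1a probe sets lie near 3 to 3.6 in both genotypes, the 3 Cdk4 probe sets lie below 0, and most of the other intervals cross 0.

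Among the D-type cyclins, Ccnd1 (cyclin D1) was the one whose treated knockout and treated control arrays did not overlap, although it did not pass the adjusted test. Its probe set 1448698_at had 789, 826 and 1125 in treated knockout cells on dates 1 to 3, against 217, 140 and 461 in treated control cells. The probe set 1417420_at had 569, 379 and 507 in treated knockout cells, against 87.9, 105 and 189 in treated control cells. The probe set 1417419_at had 245, 571 and 293 in treated knockout cells, against 73.2, 183 and 113 in treated control cells. On all 3 probe sets every treated knockout array was thus above every treated control array. The 3 are annotated to the same transcript and are not independent of each other.

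The log2 differences of Ccnd1 between treated knockout and treated control cells were 1.84 ± 0.45 for 1448698_at, 1.88 ± 0.35 for 1417420_at and 1.48 ± 0.42 for 1417419_at (SE, n = 3 arrays a group). Their limma adjusted p-values were 0.373, 0.159 and 0.549, and their unadjusted p-values 0.00221, 2.76e-04 and 0.00563. By date the difference ran between 1.26 and 2.53. Without date 2 it was 1.53, 1.95 and 1.43, with adjusted p from 0.432 to 0.809. Under the other settings tried the 3 values of Ccnd1 stayed positive, and the lowest adjusted p was 0.0602.

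**Figure D3:**
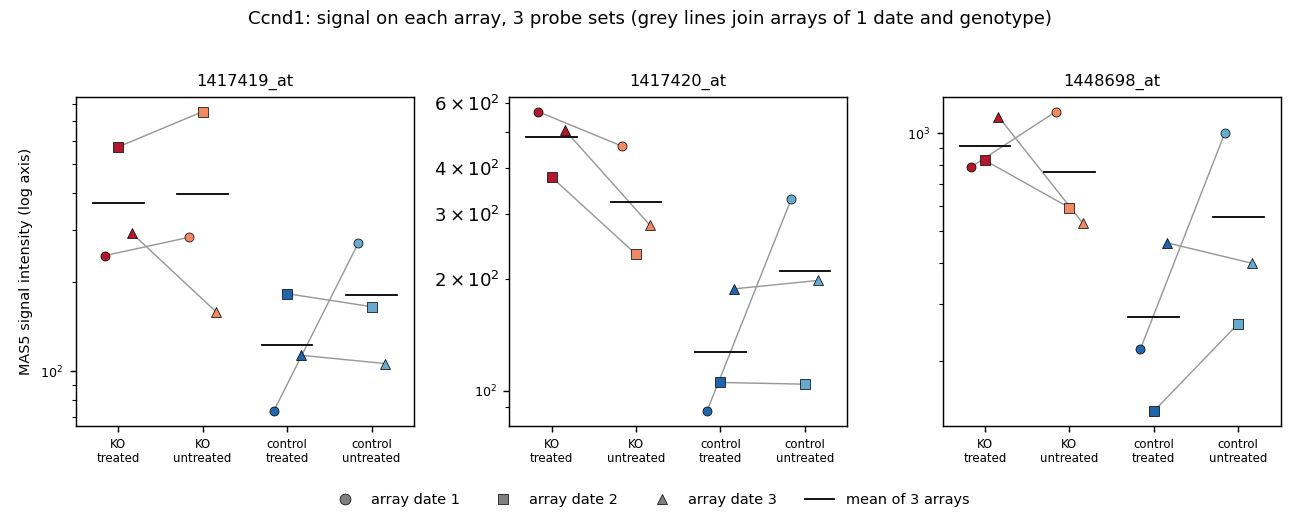
Signal of the 3 Ccnd1 probe sets on each array, on a logarithmic axis, in the 4 groups, with a bar at the mean and grey lines that join arrays of 1 date and genotype. On each probe set the 3 treated knockout arrays lie above the 3 treated control arrays, with 140 to 461 in treated control and 789 to 1125 in treated knockout cells for 1448698_at.

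Without treatment the Ccnd1 values of the genotypes overlapped. The probe set 1448698_at had 1165, 591 and 530 in untreated knockout cells on dates 1 to 3, against 1000, 261 and 399 in untreated control cells. The log2 differences were 0.59 ± 0.45, 0.67 ± 0.35 and 0.90 ± 0.42 for 1448698_at, 1417420_at and 1417419_at, each with a limma adjusted p of 1. For 1417419_at the difference was 0.07 on date 1, 2.10 on date 2 and 0.53 on date 3. Without date 2 the untreated differences were 0.31, 0.46 and 0.30. The treatment responses of Ccnd1 themselves, knockout minus control, differed by 1.25 ± 0.64, 1.21 ± 0.49 and 0.58 ± 0.60 on the log2 scale, with an adjusted p of 1 in limma. The interval of 1417420_at ran from 0.12 to 2.30 before any adjustment, and those of the other 2 included 0. Without date 2 the differences of response were 1.22, 1.48 and 1.13. The treated minus untreated values of Ccnd1 were 0.33, 0.60 and 0.08 in knockout cells and -0.92, -0.61 and -0.50 in control cells, and none was called. Without date 2 they were 0.26, 0.56 and 0.32 in knockout and -0.97, -0.92 and -0.82 in control cells. In control cells most of this lay on date 1, where the values ran from -2.14 to -1.71. On date 2 they were -0.84 for 1448698_at, 0.01 for 1417420_at and 0.14 for 1417419_at, and on date 3 they ran from -0.07 to 0.20.

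Ccnd2 (cyclin D2) was not called with treatment in either genotype. Its 7 probe sets had treated minus untreated values of 0.07 to 0.62 in knockout cells and 0.45 to 0.93 in control cells, all above 0, with limma adjusted p of at least 0.0954. Without date 2 they were 0.19 to 0.85 in knockout and 0.12 to 0.66 in control cells. Over all probe sets tested 50.8% were above 0 in knockout cells and 49.2% in control cells, and the 7 probe sets measure 1 gene. For 1434745_at the signal was 5103, 14796 and 5005 in treated control cells on dates 1 to 3, against 3946, 4724 and 3181 in untreated control cells, and these groups did not overlap. The same probe set had 3811, 7158 and 4688 in treated knockout cells, against 3660, 5503 and 3052 in untreated knockout cells, and these overlapped. The log2 differences of 1434745_at were 0.89 ± 0.27 in control cells (limma adjusted p = 0.0954) and 0.35 ± 0.27 in knockout cells (adjusted p = 0.472). By date the control value was 0.37, 1.64 and 0.65, and without date 2 it was 0.51 (limma adjusted p = 0.229). Of the Ccnd2 probe sets, 3 were called in control cells, each under 1 alternative setting only. Between the genotypes the Ccnd2 differences were -0.01 to 0.36 in untreated cells and -0.63 to 0.48 in treated cells, with both signs in each. Without date 2 they were -0.15 to 0.08 and -0.42 to 0.51.

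Ccnd3 (cyclin D3) was not called in any comparison. Its probe set 1415907_at had 2199, 1036 and 2129 in treated knockout cells, against 1795, 194 and 1946 in treated control cells. Its untreated signals were 2335, 782 and 1642 in knockout and 2012, 363 and 1552 in control cells. The lowest values in each group were on date 2. The log2 difference between treated knockout and treated control cells was 0.92 ± 0.41 (limma adjusted p = 0.584), and without date 2 it was 0.21. The treated minus untreated values were 0.23 ± 0.41 in knockout and -0.23 ± 0.41 in control cells, and 0.14 and 0.08 without date 2. The other 2 Ccnd3 probe sets lay between 25.8 and 525.

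The E-type cyclins bind CDK2 and act at entry into S phase, and neither was called. The Ccne1 probe set 1416492_at had 308, 144 and 267 in treated knockout cells on dates 1 to 3, against 540, 275 and 322 in untreated knockout cells. In control cells it had 296, 27.8 and 266 with treatment, against 476, 209 and 336 without. The treated value was below the untreated one on all 3 dates in both genotypes, although the groups overlapped. The log2 differences were -0.64 ± 0.43 in knockout (limma adjusted p = 0.394) and -1.14 ± 0.43 in control cells (adjusted p = 0.162), and without date 2 they were -0.52 and -0.49. The other Ccne1 probe set, 1441910_x_at, had -0.26 ± 0.26 in knockout and -0.35 ± 0.26 in control cells, and 0.09 and -0.26 without date 2. Ccne2 had -0.37 ± 0.27 in knockout and -0.14 ± 0.27 in control cells, and -0.17 and -0.06 without date 2. In untreated cells the 3 knockout values of Ccne2, 1250 to 1376, lay above the 3 control values, 681 to 1195, with a log2 difference of 0.42 ± 0.27 (limma adjusted p = 1). The difference was 0.86 on date 2, and without that date it was 0.20.

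The kinase gene Cdk4 was lower on treated than on untreated arrays on all 3 dates, in both genotypes and on all 3 probe sets, but it passed the test only for 1 probe set in knockout cells without date 2. The probe set 1422440_at had 2168, 2288 and 2653 in treated knockout cells, against 4972, 5229 and 4384 in untreated knockout cells, so the groups did not overlap. In control cells it had 2378, 88.7 and 2148 with treatment, against 4531, 1138 and 3669 without. The value of 88.7 is from the array on which the Actb 3' to 5' ratio was 266. The log2 differences were -1.03 ± 0.80 in knockout cells (limma adjusted p = 0.470) and -1.73 ± 0.80 in control cells (adjusted p = 0.254). Without date 2 the standard error was smaller: Cdk4 fell by 0.96 ± 0.23 in knockout cells (limma adjusted p = 0.0468), and the value in control cells was -0.85 ± 0.23 (adjusted p = 0.0731).

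The other Cdk4 probe sets gave smaller values. For 1422439_a_at they were -0.67 ± 0.48 in knockout and -0.97 ± 0.48 in control cells, and -0.57 and -0.49 without date 2. For 1422441_x_at they were -0.48 ± 0.57 and -1.16 ± 0.57, and -0.45 and -0.41 without date 2. The difference between treated knockout and treated control cells was 0.82 to 1.56 on the 3 Cdk4 probe sets, and 0.04 to 0.09 without date 2. On date 2 alone it was 2.40 to 4.50.

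**Figure D4:**
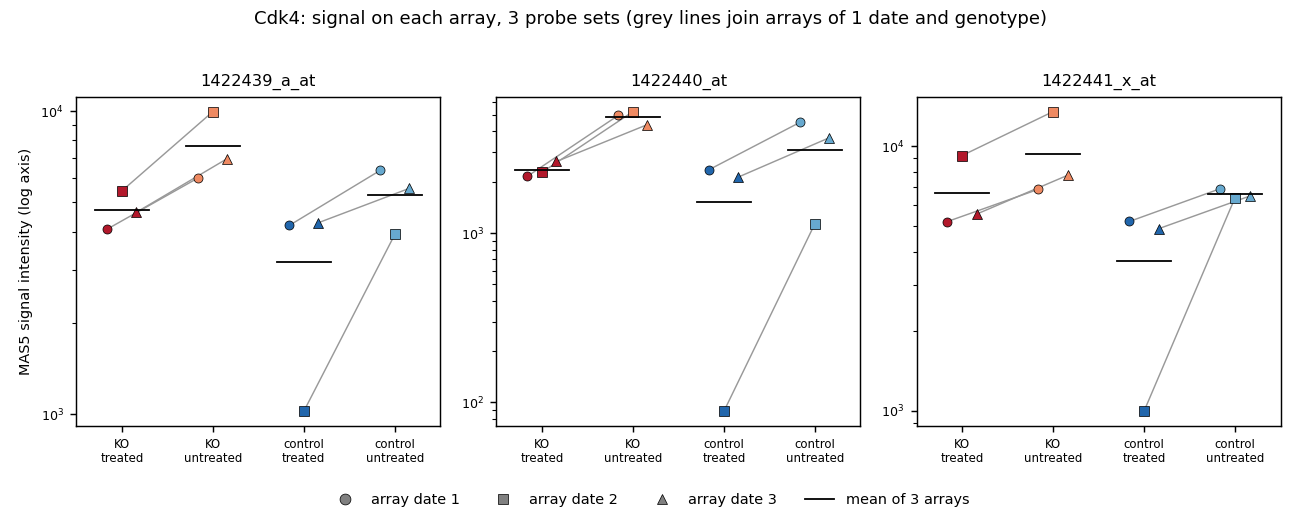
Signal of the 3 Cdk4 probe sets on each array, on a logarithmic axis, in the 4 groups, with a bar at the mean and grey lines that join arrays of 1 date and genotype. Treated arrays lie below untreated arrays of the same date and genotype, and the treated control array of date 2 lies far below the rest, at 88.7 for 1422440_at.

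Cdk6, which encodes the kinase related to CDK4, differed little between the groups on 2 of its 3 probe sets. The probe set 1435338_at lay at 8353 to 15091 in treated and 8321 to 15167 in untreated knockout cells, and at 9009 to 12061 in treated and 8841 to 13295 in untreated control cells. Its treatment values were 0.02 ± 0.21 in knockout and 0.03 ± 0.21 in control cells, with 95% confidence intervals of -0.44 to 0.49 and -0.44 to 0.50. For 1455287_at they were 0.27 ± 0.21 and 0.14 ± 0.21. Without date 2 the values were 0.04 and 0.12 for 1435338_at and 0.14 and 0.10 for 1455287_at. These intervals hold both Cdk6 probe sets within 1 on the log2 scale in either direction. The third, 1460291_at, ran from 4.51 to 941 over the arrays and carries little information.

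Of the other inhibitors, Cdkn2c (p18) had 1619, 1513 and 2260 in treated knockout cells on dates 1 to 3, against 2385, 2673 and 2380 in untreated knockout cells. In control cells it had 1591, 1805 and 1601 with treatment, against 1949, 3510 and 2400 without. In each genotype all treated arrays were below all untreated arrays. The log2 differences were -0.48 ± 0.26 in knockout cells (limma adjusted p = 0.277) and -0.61 ± 0.26 in control cells (adjusted p = 0.209), so neither was called. Without date 2 they were -0.31 and -0.44. Cdkn1b (p27), which is also controlled by protein breakdown, had treatment values of 0.14 ± 0.37 in knockout and 0.33 ± 0.37 in control cells on its tested probe set 1434045_at. On date 2 they were 0.99 and 0.93, and without that date they were -0.29 and 0.03.

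The arrays of a comparison can also be read by whether its groups overlap. In knockout cells 2 of 26 probe sets (both Cdkn1a) were higher on all treated than on all untreated arrays, against 11% of all probe sets, and 3 were lower (2 of Cdk4 and Cdkn2c), against 8.42%. In control cells 4 were higher (both Cdkn1a and 2 of Ccnd2), against 8.36%, and 2 were lower (1 of Cdk4 and Cdkn2c), against 6.37%. Without date 2, treatment of knockout cells gave 2 upward calls (background 6.03%) and 1 downward (3.22%), and treatment of control cells 2 upward (4.31%) and 0 downward (2.33%). Each of these shares rests on few probe sets of 1 or 2 genes, and none is read as differing from the background.

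Between knockout and control cells no member passed the adjusted test. Without treatment 0 of 26 were called, against 0.00936% of all probe sets, 0 had an unadjusted p under 0.05, against 2.43%, and 1 (Ccne2) was higher on all knockout arrays, against 1.27%. With treatment 0 of 26 were called, against 0.0609%, and 4 had an unadjusted p under 0.05, against 8.46%. These 4 were the 3 of Ccnd1 and 1415907_at of Ccnd3. The 3 Ccnd1 probe sets were higher on all treated knockout arrays, against 2.16% of all probe sets. No tested member probe set was lower on all knockout arrays, with or without treatment. The share of all probe sets in that direction was not counted. The difference of the treatment responses was called for 0 of 26 and for 0% of all probe sets, and 1 of 26, a Ccnd1 probe set, had an unadjusted p under 0.05, against 2.57%. The genotype comparisons and the treatment comparisons share arrays.

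Other genes of the pathway were read from lists chosen for these roles, with 1 probe set a gene. Among 21 genes regarded as p53 targets, 10 rose in treated knockout cells and 4 in treated control cells, and 0 fell in either. At the same adjusted threshold, 5.79% of all genes tested rose and 3.44% fell in knockout cells, and 3.33% rose and 1.81% fell in control cells. At an unadjusted p under 0.05 there were 10 of the 21 higher and 1 lower in knockout cells, and 10 higher and 0 lower in control cells. The share of all genes at that unadjusted threshold is not given here, for this list or those below, so the unadjusted counts are not set against a background. Their median was 0.86 in knockout and 0.82 in control cells, against -0.02 and -0.04 over all genes. Of the 21, 17 had values above 0 in knockout and 15 in control cells. Gadd45a, Aen, Ei24 and Tigar were below 0 in both genotypes, with values from -0.61 to -0.08. Btg2 and Perp were below 0 in control cells only. In knockout cells Trp53inp1 rose by 2.97 ± 0.35, the kinase gene Plk2 by 2.76 ± 0.36, the mTORC1 inhibitor gene Ddit4 by 2.61 ± 0.48 and the pro-apoptotic gene Pmaip1 by 2.56 ± 0.43 (limma adjusted p from 0.00138 to 0.011). In control cells the stress gene Sesn2 rose by 3.14 ± 0.55, Pmaip1 by 2.16 ± 0.43, Trp53inp1 by 1.84 ± 0.35 and Rrm2b by 0.93 ± 0.23. Rrm2b lost its call without date 2 (limma adjusted p = 0.0993), while the list again had 10 upward calls in knockout and 4 in control cells. Several of these genes, such as Ddit4 and Sesn2, are also known to respond to other stresses.

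Among 20 replication genes, 3 fell in treated knockout cells: the uracil glycosylase gene Ung by 2.11 ± 0.45, the replication helicase subunit gene Gins1 by 1.23 ± 0.28 and the origin licensing gene Cdc6 by 0.98 ± 0.25. Without date 2 Cdc6 lost its call (-0.74, limma adjusted p = 0.0704), while 3 of the 20 were again called downward. In treated control cells 1 of 20 fell, the ribonucleotide reductase gene Rrm2, by 1.26 ± 0.31 (limma adjusted p = 0.0479). Without date 2 Rrm2 lost its call (-0.86, limma adjusted p = 0.0709), and 5 other genes of the 20 were called downward. At an unadjusted p under 0.05, for which no share of all genes is given, there were 10 lower in knockout and 15 lower in control cells. The medians were -0.61 in knockout and -0.82 in control cells. Among 18 mitosis genes limma called 0, with medians of -0.36 in knockout and -0.43 in control cells, and 2 and 4 were lower at an unadjusted p under 0.05. Among 13 genes of the RB and E2F axis limma called 0, with medians of -0.03 and -0.11, and at an unadjusted p under 0.05 there were 2 higher and 1 lower in knockout and 1 higher and 1 lower in control cells. Of 4 other CDK inhibitor genes on the array, Cdkn2a and Cdkn2b did not pass the filter on dim signals. The 2 that were tested, Cdkn1c and Cdkn2d, were not called.

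Of 18 further regulators of G1 and S phase, the cyclin G2 gene Ccng2 rose in treated knockout cells by 1.56 ± 0.29 (limma adjusted p = 0.0110), and the CDK1-inhibiting kinase gene Wee1 fell by 1.07 ± 0.23 (adjusted p = 0.0210, and 0.0506 without date 2). In treated control cells Wee1 fell by 1.20 ± 0.23 (limma adjusted p = 0.0187), and Ccng2 had a value of 0.97 ± 0.29 (adjusted p = 0.0831, and 0.0184 without date 2). Of 10 genes of the MYC network, the MYC antagonist gene Mxd1 rose in treated knockout cells by 1.67 ± 0.34 (limma adjusted p = 0.0166). Its value in control cells was 1.26 ± 0.34 (adjusted p = 0.0645, and 0.0291 without date 2). In the knockout against control comparisons and the difference of responses 0 genes of any list were called.

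**Figure D5:**
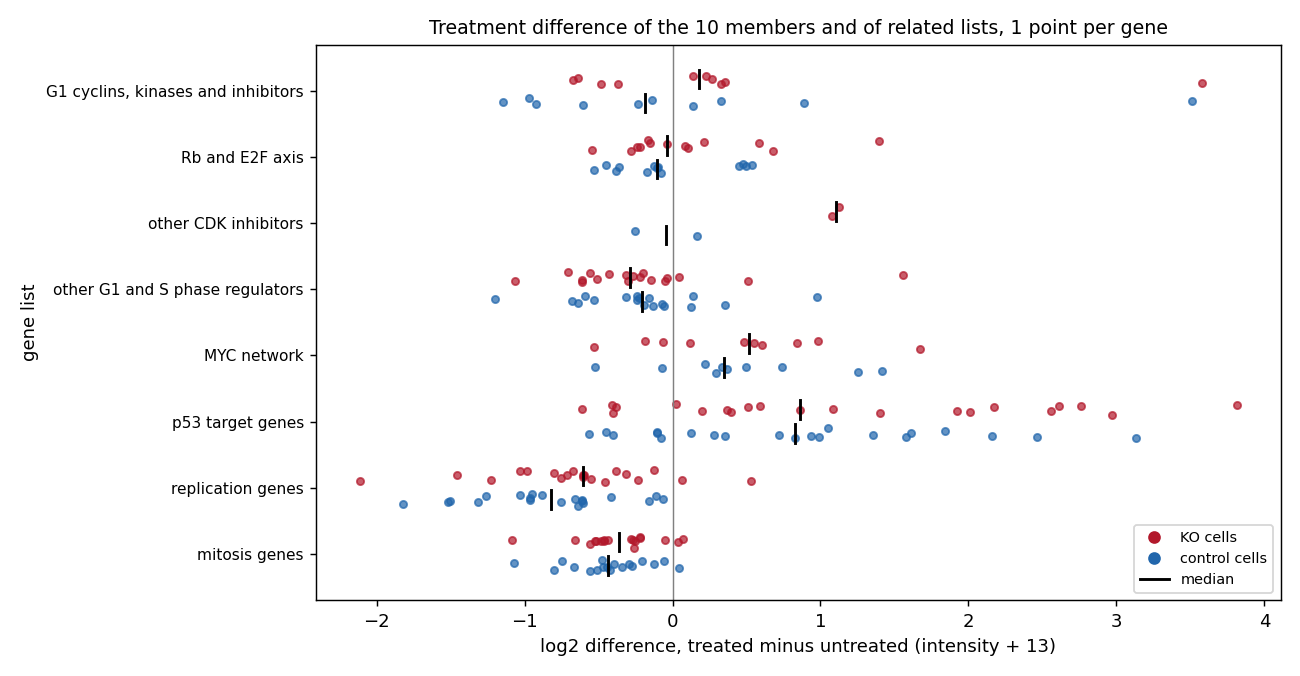
Log2 difference between treated and untreated cells for the genes of each list, in knockout and control cells, with 1 point per gene and the list medians. The p53 target list has a median of 0.86 in knockout and 0.82 in control cells, and the replication list -0.61 and -0.82.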

How the data were processed

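Messenger RNA was measured on 12 Affymetrix Mouse430_2 arrays, with 4 groups of 3, and by their titles each array date held 1 array of every group. For 45101 probe sets the authors deposited a linear intensity, computed with MAS5 according to the submitters' processing notes. No version or setting is given in the sources used here. All arrays had been scaled to a common trimmed mean. MAS5 subtracts mismatch signal, so dim values are unstable. Precision is limited by the number of arrays.

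Names came from the platform annotation, and probe sets with 1 symbol (34945; 932 had several) were used. The filter kept probe sets brighter than 70.5495 (the median over all values) on 3 or more arrays, which left 21363 probe sets of 11815 genes. limma 3.58.1 in R 4.3.3 was fitted to log2 of the intensity plus 13, with all 12 arrays, the 4 groups and array date as a block (6 residual and 4.21 prior degrees of freedom). A fold of a dim gene is understated on this scale. p-values were adjusted by Benjamini-Hochberg over all probe sets of each of 5 comparisons, with a threshold of 0.05. The titles give the dates. Deviations from the group mean correlated at 0.367 to 0.750 between groups on the same date and at -0.680 to 0.435 across dates.

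All probe sets of the members are reported. For each pathway list the text names genes from up to 4 called ones with the smallest adjusted p, and where fewer than 2 were called the 2 with the largest moderated t. For a list, 1 probe set stood for a gene, the one with the highest mean log2 value. Probe sets with names that end in _x_at or _s_at were used only where no other was left. The members and lists were chosen with earlier results of these data known. The fit was tested on simulated data. The alternatives tried were the constant added, the filter, quantile normalization, array weights, a trended robust fit, 1 probe set per gene, no block, only the groups compared, and leaving out each array or date 2. Protein sequences were not used here. The figures used matplotlib 3.10.9 (Python 3.11.15).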

Additional observations from a re-analysis of the deposited data

How the results depend on the processing

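Of 2859 values of the member probe sets under the alternatives, 2841 kept their direction and side of the threshold or were not called either way, 14 lost a call, 4 gained one and 0 reversed a call. In 163 values, of 62 results, the sign changed with neither value called. The rise of Cdkn1a on 1424638_at kept its call throughout, and all 14 lost calls were of its other probe set, 1421679_a_at. The 4 gained calls were Cdk4 1422440_at in knockout cells without date 2 and 3 Ccnd2 probe sets in control cells, each under 1 setting. The cause was not tested.

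Treatment of knockout cells gave 1849 calls over all probe sets, 1045 with no filter, 343 with no replicate block, 3578 with array weights and 949 with only these groups, and 572 to 2550 with 1 array left out. Its count of called members was 2, and 1 with no block or 1 probe set per gene, 3 without date 2 and 1 to 2 with 1 array left out. Treatment of control cells gave 1004 calls, 548 with no filter, 172 with no block, 3587 with array weights, 215 with only these groups and 264 to 1219 with 1 array left out. Its count of called members was 2, and 1 with no filter, no block, 1 probe set per gene or only these groups, 3 with array weights or the trended robust fit, and 1 to 2 with 1 array left out. Knockout against control without treatment gave 2 calls, 0 with a constant of 1, no filter, a filter on all arrays or only these groups, 1 with no block and 0 to 2 with 1 array left out. With treatment it gave 13, and 0 with a constant of 1, 26 with 64, 7 with no filter, 2 with no block, 7 with 1 probe set per gene, 52 with array weights, 21 with the trended robust fit, 0 with only these groups and 0 to 11 with 1 array left out. The difference of responses gave 0, and 3 with a constant of 64 or array weights and 0 to 1 with 1 array left out. In these 3 comparisons no member was called under any alternative run.

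The pairing by date was part of the fit, and the block moved no called member across the threshold other than 1421679_a_at of Cdkn1a. The fit of array weights stopped before convergence. With 3 arrays a group and high 3' to 5' ratios on date 2, the adjusted test could miss differences well above 0.684 on the log2 scale. That value is the median reach of the intervals over all probe sets in the treatment comparisons. Probe sets near the background carry the least information.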

Other observations

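Beyond the members, several list genes had an unadjusted p under 0.05 in limma between treated knockout and treated control cells, as did 8.46% of all probe sets. None passed the adjusted test. Tk1, Aurka, Mcm5, Zbtb17, Plk3 and Cdkn1c were among them, and so were E2f2, Cdkn2d and Myc. Only E2f2, Cdkn2d and Myc are described here, and their differences were smaller without date 2. They were picked after their values were seen. The E2F family gene E2f2 averaged 1438 ± 701 in treated knockout and 725 ± 503 in treated control cells (SD, n = 3 arrays each), with a log2 difference of 1.23 ± 0.38 (limma adjusted p = 0.584), which was 0.58 without date 2. The p19 inhibitor gene Cdkn2d averaged 905 ± 265 in treated knockout and 427 ± 363 in treated control cells, a difference of 1.86 ± 0.62 (limma adjusted p = 0.584), which was 0.72 without date 2. Myc averaged 2998 ± 1444 in treated knockout and 4902 ± 794 in treated control cells, a difference of -0.83 ± 0.33 (limma adjusted p = 0.584), which was -0.44 without date 2.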
